A study of Drosophila melanogaster with 30 samples.

Results

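The mitochondrial ribosomal protein genes are the nuclear genes named *mRpL* (large subunit) or *mRpS* (small subunit). Members were all genes with such a symbol whose identifier was in the count table and that averaged at least 10 counts per library. The reference annotation listed 73 such symbols. Of these, 71 were matched by identifier, and 70 averaged at least 10 counts, 46 of the large and 24 of the small subunit, out of 17713 features in the table. *mRpL53* (FBgn0050481) had 0 counts in every library, where 3 counts correspond to 0.0911 to 0.172 CPM (a gene's counts relative to the scaled library total), so it was not a member. All of its exonic bases overlap other genes (100%), *CG33155* on the same strand and *AGO1* on the opposite one. The identifiers listed for *mRpS5* and *mRpS34* did not match and these genes were not analysed here.

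Mitochondrial ribosomes translate the few proteins still encoded by mitochondrial DNA, all of them subunits of the respiratory chain and ATP synthase. Their rRNAs come from mitochondrial DNA, whereas their proteins are encoded in the nucleus, made in the cytosol and imported. TOR kinase promotes growth when nutrients are available, in part through ribosome production and mitochondrial function, and HR3 is the fly nuclear receptor of the ROR family.

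RNA was sequenced from whole feeding late-third-instar larvae, with 5 larvae pooled per library and 5 libraries in each of 6 groups. *TOR-RNAi* larvae and *HR3-RNAi* larvae expressed an RNAi transgene against the named gene, and control larvae carried the driver without an RNAi transgene. In all 3 genotypes the driver was *Tub-GAL80TS; Tub-GAL4*, a ubiquitous GAL4 held off by a temperature-sensitive repressor at 18 °C and released at 29 °C. By the sample labels, larvae from an 8 h egg collection grew at 18 °C, moved to 29 °C at 111 h and went onto low-cholesterol food at 120 h, while the study's methods give later hours for both steps. After 10 h on low-cholesterol synthetic food, larvae either received 80 µg/mL cholesterol for a further 10 h (refed) or stayed at 1.2 µg/mL (low cholesterol). Larval sex was not sorted, and because whole larvae were used, fewer cells of a type and less RNA per cell cannot be told apart.

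Libraries held between 19744564 and 33510753 counts. The knockdown target *mTor* fell by 0.65 on the log2 scale in *TOR-RNAi* larvae over both diets (SE 0.0740, edgeR adjusted p = 3.61e-07). *Hr3*, whose group means were below 1 CPM, stood at -0.39 on the log2 scale in *HR3-RNAi* larvae against controls (SE 0.296, edgeR adjusted p = 0.495). No sequencing batch is named in the sources used here. The level of the male-specific *roX* RNAs differed widely between libraries.

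Expression per length differed 5.90-fold across the 70 members. In FPKM, the fragments per kilobase of gene, scaled by library depth, that the authors computed, the median over 30 libraries ran from 10.5 to 61.8, with a median of 22.8 FPKM for the large and 23.1 FPKM for the small subunit. The members with the highest levels were *mRpL28* (FBgn0031660) at 61.8 FPKM, *mRpL12* (FBgn0011787) at 57.5 FPKM and *mRpL33* (FBgn0040907) at 48.9 FPKM. The product of *mRpL12* belongs to the stalk of the large subunit, where translation factors dock in bacteria, and in flies *mRpL12* is known as a gene required for growth. The lowest were *mRpL21* (FBgn0036853) at 10.5 FPKM, *mRpS24* (FBgn0039159) at 10.8 FPKM and *mRpL11* (FBgn0038234) at 13.1 FPKM. For *mRpS24*, 55.3% of exonic bases overlap *TBC1d7* on the opposite strand, and 41 of the 70 members shared some exonic bases with another gene, 40 of them with one on the opposite strand and 2 with one on the same strand. Whether such overlaps changed their counts was not tested.

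**Figure D1:**
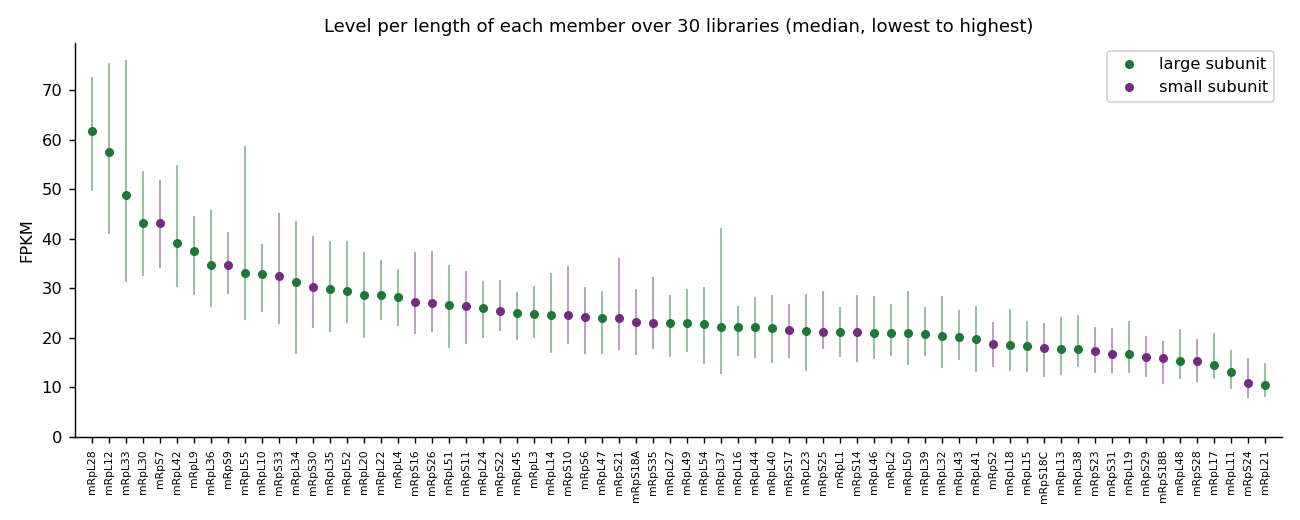
Level per length of each of the 70 members, ordered by median FPKM over 30 libraries (points) with the lowest and highest library (lines), coloured by subunit. *mRpL28* and *mRpL12* stand at the top and *mRpL21* at the bottom, and members of the 2 subunits are interleaved.

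The typical member was lowest in refed *TOR-RNAi* larvae and highest in refed controls. The median over members of the group median level was 18.5 FPKM in refed and 22.4 FPKM in low-cholesterol *TOR-RNAi* larvae, 22.5 and 23.0 FPKM in refed and low-cholesterol *HR3-RNAi* larvae, and 26.3 and 25.3 FPKM in refed and low-cholesterol controls. The *HR3-RNAi* groups and low-cholesterol *TOR-RNAi* larvae, neighbours in this order, differed by less than the spread between their libraries.

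To follow the members library by library, each was expressed as log2 CPM (scaled by edgeR's TMM method) minus its own mean over 30 libraries, and the median deviation of the 70 was taken. It was -0.27, -0.26, -0.38, 0.17 and -0.24 in refed *TOR-RNAi* larvae, against 0.30, 0.09, 0.32, 0.06 and 0.23 in refed controls. All refed *TOR-RNAi* libraries but replicate 4 lay below every refed control. In refed *HR3-RNAi* larvae it was -0.03, -0.06, 0.01, -0.09 and -0.04, also below every refed control. On low cholesterol it was -0.12, -0.10, 0.09, -0.24 and 0.10 in *TOR-RNAi* larvae and -0.19, 0.13, -0.10, -0.01 and 0.11 in *HR3-RNAi* larvae, against -0.22, 0.18, 0.28, 0.31 and 0.05 in controls. Here the groups overlapped, and control replicate 1 lay far below the other controls, with 1 of 70 members above its 30-library mean, whereas replicates 3 and 4 had all 70 above.

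**Figure D2:**
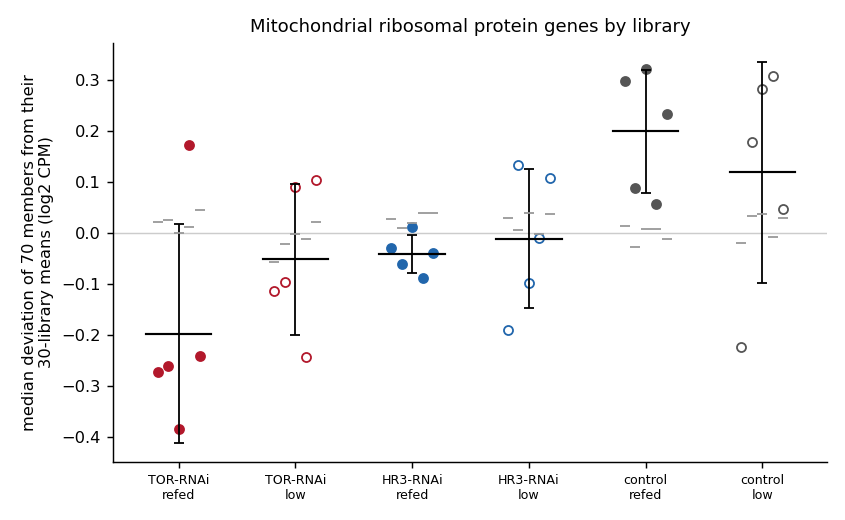
Median deviation of the 70 members from their own 30-library means (log2 CPM) in each library; filled points are refed and open points low cholesterol, bars give the group mean and SD (n = 5), and grey dashes give the same median over all 12178 genes tested. Of the 5 refed *TOR-RNAi* libraries, 4 lie below every refed control, and replicate 4, at 0.17, lies above all other *TOR-RNAi* libraries.

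Refed *TOR-RNAi* replicate 4 had the highest level of its group for 68 of the 70 members. It also had the highest *roX* level of its group, 177 CPM against 48.8 to 88.7 CPM. In both control groups the library with the most *roX* RNA was instead the lowest. The refed control with the most *roX* RNA, replicate 4 at 166 CPM, had the lowest member median of its group, 0.06. The refed control with the least, replicate 2 at 10.2 CPM, had the next lowest, 0.09. The low-cholesterol controls with the most, replicates 1 and 5 at 182 and 164 CPM, had the lowest there, -0.22 and 0.05. The refed *HR3-RNAi* library with the most, replicate 4 at 132 CPM, was also the lowest of its group, at -0.09, whereas in the low-cholesterol RNAi groups the library with the most was neither highest nor lowest. The part of larval sex in the members' levels was examined only in a fit with *roX* as a covariate, with the same slope in every group fitted.

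Members varied together between libraries of a group. After the group means were subtracted, all 2415 pairs of members had a positive Pearson correlation of log2 CPM over the 30 libraries, with a median of 0.72 and a range of 0.0409 to 0.94. These values are descriptive, as the pairs share libraries and scaling. The most alike pairs were *mRpL30* and *mRpL49* (r = 0.94), *mRpL32* and *mRpL49* (r = 0.93), and *mRpL43* and *mRpL55* (r = 0.93). Within groups, *mRpL22*, *mRpS9* and *mRpL28* varied least, with SDs of 0.108, 0.113 and 0.116 log2 CPM, and *mRpL33*, *mRpL34* and *mRpS21* varied most, with 0.347, 0.315 and 0.270. The median SD was 0.193 log2 CPM over members and 0.223 over all genes tested.

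The first comparison asks whether cholesterol refeeding changed these genes in each genotype. Tested with edgeR (quasi-likelihood, Benjamini-Hochberg adjustment), no member passed an adjusted p of 0.05 in any genotype. The median log2 fold change of members, refed over low cholesterol, was -0.14 in *TOR-RNAi* larvae, -0.04 in *HR3-RNAi* larvae and 0.08 in controls, where the median of all genes tested was -0.0027, -0.000056 and -0.0021. After refeeding, 67 of the 70 members had a negative log2 fold change in *TOR-RNAi* larvae (50.6% of all genes), 47 in *HR3-RNAi* larvae (50.0%) and 6 in controls (50.5%).

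In controls, 0 of 70 members were called, against a background of 3.83% of 11374 genes. At an unadjusted p under 0.05, edgeR gave 1 member, beside 14.9% of all genes. DESeq2's adjusted p also gave 1, beside 734 of 11374 genes. That member was *mRpL28*, a large subunit protein with a bacterial counterpart, with 83.3, 76.5, 85.7, 80.3 and 86.6 CPM in refed controls, against 62.5, 73.7, 78.3, 74.1 and 66.1 CPM in low-cholesterol controls. Only the highest low-cholesterol control reached into the refed range. Its log2 fold change was 0.22 (SE 0.0560, edgeR adjusted p = 0.0545). For *mRpL21*, with the largest absolute change, it was 0.23 (SE 0.123, edgeR adjusted p = 0.438). For *mRpL45* and *mRpL24*, next in order of p, the log2 fold changes were 0.13 and -0.15 (edgeR adjusted p = 0.386 and 0.431). The direction of the whole set in controls rested on 1 library: without low-cholesterol control replicate 1, the median log2 fold change was -0.0027, with 37 of 70 members lower, and with *roX* as a covariate it was 0.01, with 33 lower. With library totals only it was also 0.01, with 24 lower, where the median of all genes was -0.07. The median of members was 0.05 without refed control replicate 1 or 0.04 without refed control replicate 3.

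In *HR3-RNAi* larvae, 0 of 70 members were called, against 3.44% of 11615 genes. At an unadjusted p under 0.05 edgeR gave 2, beside 14.6% of all genes. DESeq2's adjusted p gave 0 members, where 313 of 11615 genes rose and 387 fell. *mRpL42* had 23.8, 25.6, 25.7, 24.9 and 25.01 CPM in refed and 18.3, 24.4, 19.96, 22.6 and 22.4 CPM in low-cholesterol *HR3-RNAi* larvae, and the groups overlapped in 1 library (log2 fold change 0.22, SE 0.0789, edgeR adjusted p = 0.198). *mRpL39* was at -0.21 (SE 0.0900, edgeR adjusted p = 0.306) and *mRpL27* at 0.15 (edgeR adjusted p = 0.503). The median of members changed sign, to 0.00080, without low-cholesterol *HR3-RNAi* replicate 2, and 1 member was called without low-cholesterol *HR3-RNAi* replicate 5.

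In *TOR-RNAi* larvae, 0 of 70 members were called, against 0.562% of 11569 genes. At an unadjusted p under 0.05, edgeR gave 5 members, all lower after refeeding, where 3.00% of all genes were lower at that threshold. DESeq2's adjusted p gave 0 members, beside 267 of 11569 genes. *mRpL44*, a mitochondria-specific large subunit protein, had 19.3, 19.6, 17.8, 25.6 and 18.2 CPM in refed and 23.9, 24.2, 27.8, 22.0 and 25.5 CPM in low-cholesterol *TOR-RNAi* larvae. All refed libraries but replicate 4 lay below every low-cholesterol one. Its log2 fold change was -0.31 (SE 0.108, edgeR adjusted p = 0.420), and *mRpL18* and *mRpL16* were at -0.28 and -0.27 (edgeR adjusted p = 0.386 and 0.510). Without refed *TOR-RNAi* replicate 3, the median log2 fold change was -0.09, with 61 members lower. Without refed *TOR-RNAi* replicate 4, all 70 members were lower after refeeding, with a median log2 fold change of -0.24. Of these, 37 had an unadjusted p under 0.05, where 4.54% of all genes were lower at that threshold. Still 0 were called (smallest edgeR adjusted p = 0.0653).

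**Figure D3:**
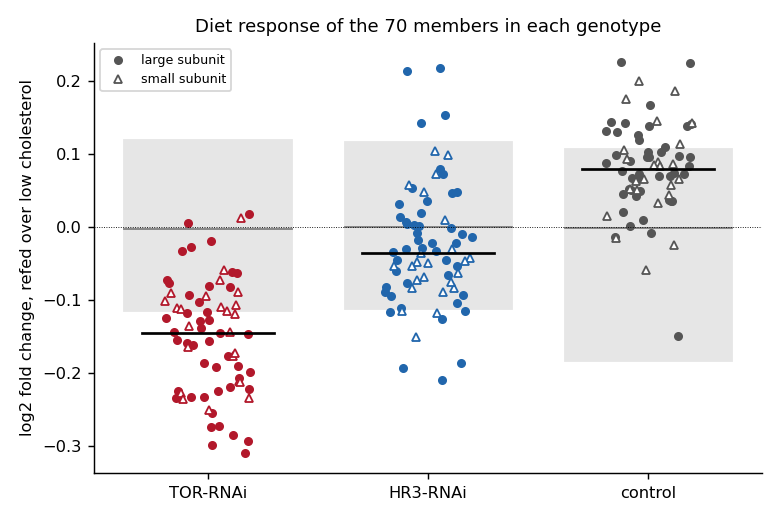
Log2 fold change of refed over low cholesterol for the 70 members in *TOR-RNAi* larvae, *HR3-RNAi* larvae and controls; black bars are the members' medians (-0.14, -0.04 and 0.08), and grey boxes with lines give the quartiles and median of all genes tested. No member passed the test in any genotype.

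Whether the diet response differed between genotypes was tested as an interaction over all 30 libraries. For *TOR-RNAi* larvae minus controls, 0 of 70 members were called by edgeR or DESeq2. Over all 12178 genes, edgeR called 0 and DESeq2 called 74. The median difference of members was -0.19 on the log2 scale, where that of all genes was 0.06, and 67 of 70 were negative, beside 40.4% of all genes. At an unadjusted p under 0.05, 13 members had a lower response in *TOR-RNAi* larvae and none a higher one, beside 3.90% and 5.22% of all genes. The smallest p belonged to *mRpL28*, with a difference of -0.30 (SE 0.104, edgeR adjusted p = 0.355), and the largest difference to *mRpL21* (-0.44, SE 0.175, edgeR adjusted p = 0.432). *mRpL44* and *mRpS35* were at -0.42 and -0.39 (edgeR adjusted p = 0.411 and 0.428). The median was -0.12 when libraries were scaled by their totals only, where that of all genes was 0.13. Without low-cholesterol control replicate 1 it was -0.14, with 8 members lower at an unadjusted p under 0.05, beside 3.69% of all genes. Without refed *TOR-RNAi* replicate 4, the median was -0.34, and 40 members were lower at an unadjusted p under 0.05, beside 6.73% of all genes. Of the members, 0 were called (smallest edgeR adjusted p = 0.0692).

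For *HR3-RNAi* larvae minus controls, 0 of 70 members were called by edgeR or DESeq2. Over all 12178 genes, edgeR called 0 and DESeq2 called 32. At an unadjusted p under 0.05, edgeR gave 0 members, beside 6.72% of all genes. The median difference was -0.11, with 61 of 70 members negative (45.6% of all genes). It was -0.05 without low-cholesterol control replicate 1, with 46 negative, and -0.07 without low-cholesterol *HR3-RNAi* replicate 2. With library totals only it was also -0.07, where that of all genes was 0.07. *mRpL28*, *mRpL39* and *mRpL18* had differences of -0.21, -0.24 and -0.28 (edgeR adjusted p = 0.762, 0.810 and 0.809). A difference between the genotypes in the diet response of these genes was thus not detected at this spread, with a median SE of 0.169.

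The next comparison asks how the members differed between *TOR-RNAi* larvae and controls on each diet. After refeeding, all 70 members had a lower fitted level in *TOR-RNAi* larvae (42.6% of all genes), and 49 of them fell, 32 of 46 large and 17 of 24 small subunit members. The background of lower calls was 9.79% of 12178 genes, and no member rose. The median log2 fold change was -0.40 over members, -0.40 over the large and -0.41 over the small subunit, against 0.06 over all genes. In 12 members, every refed *TOR-RNAi* library was below every refed control (5.83% of all genes), and in 65 once refed *TOR-RNAi* replicate 4 was left out (10.1% of all genes).

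*mRpL55* (FBgn0038678, chromosome 3R from 19094394 to 19094905, BDGP6.54, minus strand, 2 exons), a large subunit protein without a bacterial counterpart in the human nomenclature, had the largest fall. It had 11.4, 11.1, 10.8, 18.2 and 12.1 CPM in refed *TOR-RNAi* larvae, against 20.6, 20.1, 23.6, 18.9 and 21.6 CPM in refed controls. Replicate 4 lay close under the lowest control and the other 4 libraries far below it. Expression was 0.607-fold that of controls (log2 fold change -0.72, SE 0.158, edgeR adjusted p = 0.00237).

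*mRpL14* (FBgn0040389, chromosome X from 2343997 to 2344649, minus strand, 1 exon), a large subunit core protein, had 13.1, 12.4, 10.7, 16.8 and 11.5 CPM in refed *TOR-RNAi* larvae, against 22.1, 19.2, 22.0, 16.4 and 18.8 CPM in refed controls. The groups overlapped through *TOR-RNAi* replicate 4 and control replicate 4. Its log2 fold change was -0.61 (SE 0.130, edgeR adjusted p = 0.00188). *mRpL18*, also a core protein of the large subunit, had 10.1, 10.5, 10.0, 13.4 and 10.5 CPM in refed *TOR-RNAi* larvae and 16.6, 14.5, 17.1, 15.9 and 17.7 CPM in refed controls, with no overlap (log2 fold change -0.59, SE 0.119, edgeR adjusted p = 0.00126).

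*mRpL54*, *mRpL32* and *mRpL35*, also of the large subunit, completed the 6 largest falls. *mRpL54* had 11.5, 10.3, 11, 15.6 and 12.5 CPM in refed *TOR-RNAi* larvae, against 18.8, 17.6, 20.1, 15.2 and 20.8 CPM in refed controls, and again replicate 4 of both genotypes overlapped (log2 fold change -0.60, edgeR adjusted p = 0.00145). *mRpL32*, which has a bacterial counterpart, had 9.95, 10.5, 9.45, 18.5 and 11.7 CPM in refed *TOR-RNAi* larvae, against 18.1, 19.1, 18.9, 15.0 and 18.5 CPM in refed controls, where *TOR-RNAi* replicate 4 lay within the control range (-0.57, edgeR adjusted p = 0.00651). *mRpL35*, likewise shared with bacteria, had 17.1, 16.3, 15.8, 23.9 and 17.7 CPM in refed *TOR-RNAi* larvae, against 28.9, 23.98, 29.97, 22.6 and 28.5 CPM in refed controls (-0.56, edgeR adjusted p = 0.00192). All 3 separated from controls in every refed *TOR-RNAi* library but replicate 4. *mRpL12*, the stalk protein, fell by 0.40 (edgeR adjusted p = 0.0239).

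The number of members that fell after refeeding depended on single libraries. It was 28 without refed control replicate 1, 32 without refed *TOR-RNAi* replicate 3 and 67 without refed *TOR-RNAi* replicate 4, and all 70 members had a negative log2 fold change in each of these fits. For the genotype comparisons, calls over all genes were not counted in fits with a library left out, here or below. Whether such shifts were particular to the members was not tested.

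On low cholesterol, 67 of the 70 members had a lower fitted level in *TOR-RNAi* larvae than in controls (49.9% of all genes), with a median log2 fold change of -0.18, and 3 fell, beside 1.84% of all genes. *mRpL22* (FBgn0030786), whose bacterial counterpart lines the exit tunnel, had 28.9, 24.5, 25.7, 24.1 and 26.7 CPM in low-cholesterol *TOR-RNAi* larvae, against 26.2, 30.8, 35.4, 35.5 and 30.7 CPM in low-cholesterol controls. Control replicate 1 alone lay among the *TOR-RNAi* libraries. Its log2 fold change was -0.29 (SE 0.0698, edgeR adjusted p = 0.0144). *mRpS31* and *mRpS6*, both of the small subunit, fell by 0.40 and 0.34 (edgeR adjusted p = 0.0248 and 0.0276). *mRpL55* had the largest change, -0.54 (SE 0.158, edgeR adjusted p = 0.0533).

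These low-cholesterol calls were not stable. A fit of only the 2 groups compared gave 0 members, where 88 of 11539 genes fell, against 224 of 12178 in the fit of all 30 libraries. Leaving out 1 low-cholesterol library gave 0 (without control replicate 3 or *TOR-RNAi* replicate 4), 1 (without control replicate 2 or 4, or *TOR-RNAi* replicate 1), 2 (without control replicate 5 or *TOR-RNAi* replicate 2), 4 (without *TOR-RNAi* replicate 5) or 8 (without control replicate 1). Leaving out any other library gave 3 or 4.

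Averaged over both diets, which uses all 10 libraries of each genotype, 53 members fell in *TOR-RNAi* larvae and none rose, beside 12.2% of 12178 genes that fell. They were 33 of 46 large and 20 of 24 small subunit members. The median log2 fold change was -0.30 over members and 0.03 over all genes, and 69 of 70 members were negative (44.8% of all genes), the exception being *mRpL39* at 0.01. The largest falls were *mRpL55* (-0.63), *mRpL14* (-0.49), *mRpL23* (-0.48) and *mRpL54* (-0.48) of the large subunit, and *mRpS31* (-0.45) and *mRpS6* (-0.45) of the small subunit.

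*mRpS6* (FBgn0035534, chromosome 3L from 4364550 to 4365243, plus strand, 2 exons) is the mitochondrial protein and is distinct from the cytosolic ribosomal protein S6 that the TOR pathway phosphorylates. It had 11.5, 10.8, 10.2, 14.2 and 12.8 CPM in refed *TOR-RNAi* larvae, against 17.5, 16.4, 19.5, 16.1 and 17.8 CPM in refed controls, with no overlap. On low cholesterol it had 12.1, 13.3, 15.2, 10.9 and 13.5 CPM in *TOR-RNAi* larvae, against 14.0, 17.8, 16.6, 16.5 and 17.4 CPM in controls, where *TOR-RNAi* replicate 3 exceeded control replicate 1. The log2 fold change over both diets was -0.45 (SE 0.0634, edgeR adjusted p = 1.07e-05).

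*mRpS31* (FBgn0036557, chromosome 3L from 16005193 to 16006599, plus strand, 3 exons) had 17.8, 17.3, 15.9, 23.6 and 17.1 CPM in refed *TOR-RNAi* larvae, against 27.2, 23.0, 28.9, 24.3 and 26.5 CPM in refed controls, and only replicate 4 reached the control range. On low cholesterol it had 17.3, 20.5, 20.2, 16.2 and 21.4 CPM in *TOR-RNAi* larvae and 21.0, 26.4, 25.4, 28.4 and 24.7 CPM in controls, with 1 *TOR-RNAi* library above the lowest control. The log2 fold change over both diets was -0.45 (SE 0.0727, edgeR adjusted p = 6.59e-05).

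Leaving out any 1 of the 30 libraries gave 43 to 66 members that fell over both diets, and the other fits with the same threshold gave 43 to 58. With *roX* as a covariate, all 53 members remained called among 58. Calls over all 12178 genes were also more frequent with the covariate: 1624 rose and 1760 fell, against 1062 and 1486 without it. The fit with *roX* used the same slope for all groups, although the order of *roX* and member levels differed between groups.

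**Figure D4:**
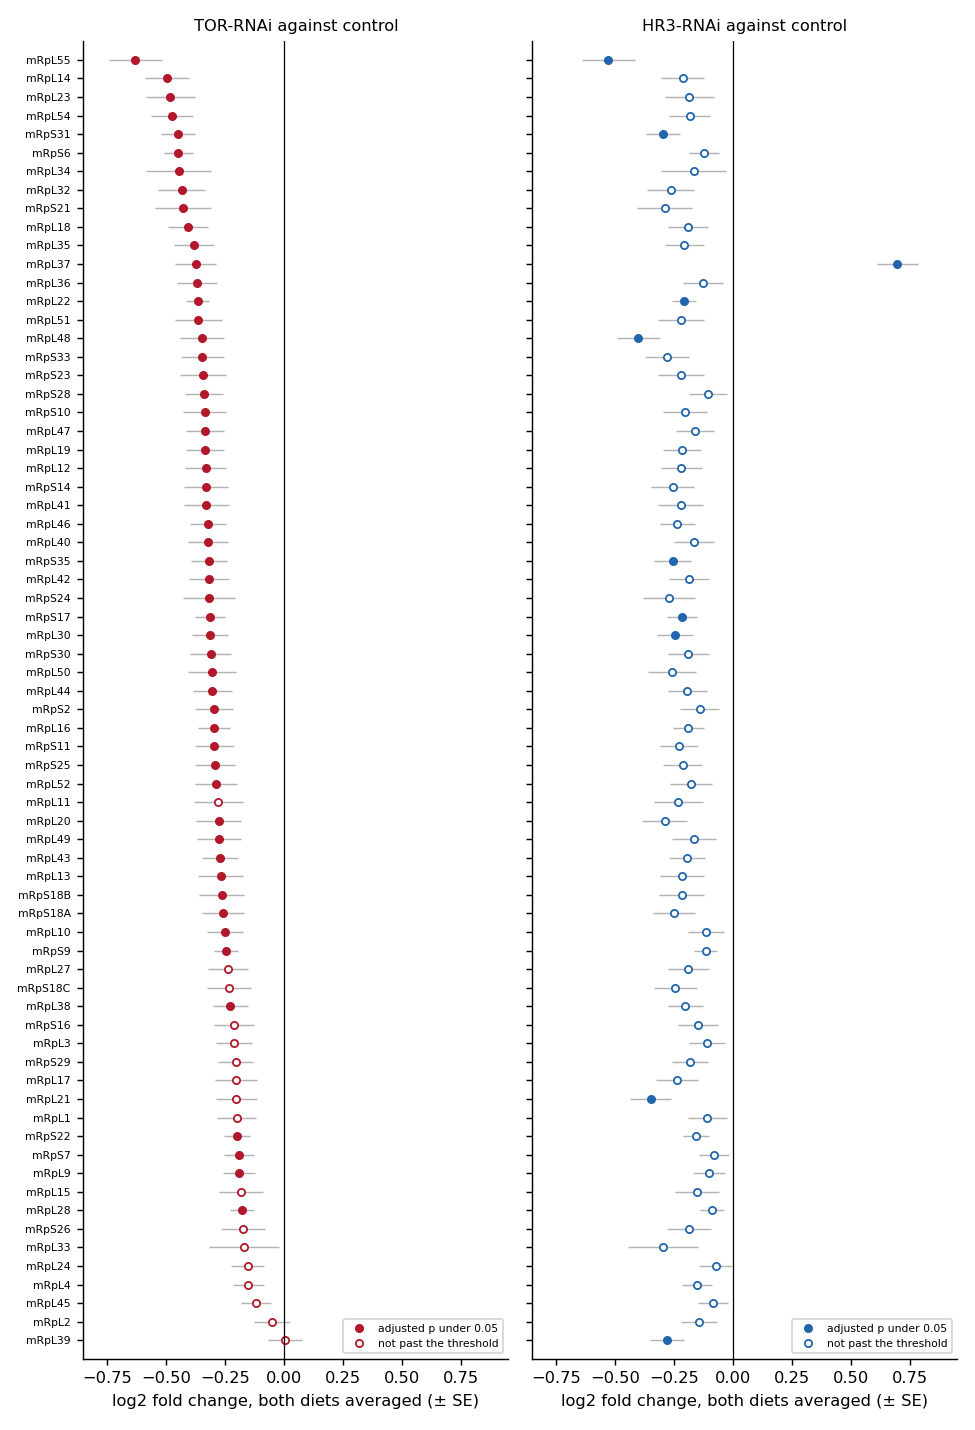
Log2 fold change (± SE) of each of the 70 members over both diets in *TOR-RNAi* larvae against controls (left) and *HR3-RNAi* larvae against controls (right), in the order of the left panel; filled points passed an adjusted p of 0.05. On the left 53 members fell, and on the right 9 fell and *mRpL37* rose.

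The comparison of *HR3-RNAi* larvae with controls uses the same control libraries, so it is not independent of the one above. Over both diets, 9 members fell, 6 of the large and 3 of the small subunit, and 1 rose, beside 4.23% and 3.30% of 12178 genes. The median log2 fold change was -0.20 over members and 0.03 over all genes, and 69 of 70 members were negative (43.3% of all genes). Besides the 6 largest falls, *mRpL55*, *mRpL48*, *mRpL21*, *mRpS31*, *mRpL39* and *mRpS35*, the members that fell were *mRpL30*, *mRpL22* and *mRpS17*.

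*mRpL55* again had the largest fall. It had 15.3, 12.9, 15.4, 14.6 and 11.9 CPM in refed *HR3-RNAi* larvae, all below the 18.9 CPM of the lowest refed control, and 13.0, 17.0, 13.2, 13.6 and 16.4 CPM in low-cholesterol *HR3-RNAi* larvae, against 12.7, 21.9, 22.9, 27.3 and 17.3 CPM in low-cholesterol controls. Only control replicate 1 lay below the *HR3-RNAi* libraries. The log2 fold change over both diets was -0.53 (SE 0.111, edgeR adjusted p = 0.00248).

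*mRpL48* (FBgn0031357) had 10.8, 11.6, 12.1, 10.6 and 10.3 CPM in refed *HR3-RNAi* larvae, against 16.9, 15.0, 16.5, 13.0 and 13.7 CPM in refed controls, with no overlap. Over both diets it and *mRpL21* had log2 fold changes of -0.40 and -0.35 (edgeR adjusted p = 0.00569 and 0.0119), and *mRpS31*, *mRpL39* and *mRpS35* of -0.30, -0.28 and -0.26 (edgeR adjusted p = 0.00965, 0.0146 and 0.0396). This count depended on single libraries more than that of *TOR-RNAi* larvae did. The number of members called was 36 without low-cholesterol control replicate 1, 27 without refed *TOR-RNAi* replicate 4 and 21 without low-cholesterol *HR3-RNAi* replicate 2. It was 16 without low-cholesterol *TOR-RNAi* replicate 4 or refed *TOR-RNAi* replicate 3. A fit without the *TOR-RNAi* libraries called 24 members, where 517 of 11947 genes rose and 839 fell. In the fit of all 30 libraries, 402 of 12178 genes rose and 515 fell. A *TOR-RNAi* library enters here only through the shared scaling and estimate of spread.

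By diet, 3 members fell and 1 rose in refed *HR3-RNAi* larvae, beside 2.57% and 1.40% of genes, and the median log2 fold change was -0.25. In 24 members, every refed *HR3-RNAi* library was below every refed control, beside 4.84% of all genes. *mRpL55*, *mRpL21* and *mRpL39* fell by 0.58, 0.44 and 0.40 (edgeR adjusted p = 0.0323, 0.0428 and 0.0217). Over all genes, 171 of 12178 rose and 313 fell. The number of members called was 38 in a fit of only the 2 groups compared, where 385 of 11450 genes rose and 878 fell. It was 9 with DESeq2's size factors and 10 with DESeq2's own test, where 189 and 276 of 12178 genes rose and 397 and 535 fell. It was 1 or 2 without refed control replicate 1, 3 or 5 or refed *HR3-RNAi* replicate 2, and 7 to 13 without any 1 of low-cholesterol control replicates 1, 2, 3 and 5, refed control replicates 2 and 4, low-cholesterol *HR3-RNAi* replicates 1 to 4, low-cholesterol *TOR-RNAi* replicates 2, 4 and 5 or the 5 refed *TOR-RNAi* replicates.

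On low cholesterol, 0 members fell and 1 rose in *HR3-RNAi* larvae, beside 1.31% and 1.30% of genes. At an unadjusted p under 0.05, edgeR gave 9 members that were lower, beside 5.63% of all genes. DESeq2's adjusted p gave 1 member in all, where 272 of 12178 genes rose and 238 fell. The median log2 fold change was -0.15, and *mRpL55* and *mRpL48* were at -0.48 and -0.36 (edgeR adjusted p = 0.119 and 0.171). Without control replicate 1, 5 members were called and the median was -0.23, and without control replicate 4 the median was -0.09.

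*mRpL37* (FBgn0261380, chromosome 3R from 10782563 to 10784092, BDGP6.54, minus strand, 4 exons), a mitochondria-specific protein of the large subunit, was the exception in *HR3-RNAi* larvae. It had 51.9, 47.7, 50.1, 46.1 and 51.4 CPM in refed *HR3-RNAi* larvae and 49.8, 56.4, 46.9, 48.6 and 49.0 CPM in low-cholesterol ones. Controls had 30.4, 30.3, 31.3, 29.6 and 35.7 CPM after refeeding and 22.9, 30.4, 35.98, 34.8 and 26.1 CPM on low cholesterol. All 10 *HR3-RNAi* libraries lay above all 10 controls, and this was the sole member to rise in any genotype comparison with controls. Over both diets its level was 1.62-fold that of controls (log2 fold change 0.70, SE 0.0862, edgeR adjusted p = 1.76e-06). In *TOR-RNAi* larvae it had 19.3, 22.1, 16.7, 29.3 and 22.9 CPM after refeeding and 21.9, 25.2, 29.0, 21.9 and 29.5 CPM on low cholesterol, and it fell by 0.37 (SE 0.0866, edgeR adjusted p = 0.00288).

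A gene next to *mRpL37* moved with it. *CG42633*, looked at after these values were seen, lies on the same strand past the end of *mRpL37*, 296 bases away. It had 54 to 115 counts in each *HR3-RNAi* library and 0 to 7 counts in each *TOR-RNAi* and control library (edgeR adjusted p = 5.11e-10 against controls). No part of *mRpL37*'s exons overlaps another annotated gene. Whether the *mRpL37* difference came with the *HR3* knockdown or with another difference of that line cannot be told apart, since all *HR3-RNAi* libraries carry the transgene under the same label. The same limit holds for the other members that differed from controls in *HR3-RNAi* or *TOR-RNAi* larvae.

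**Figure D5:**
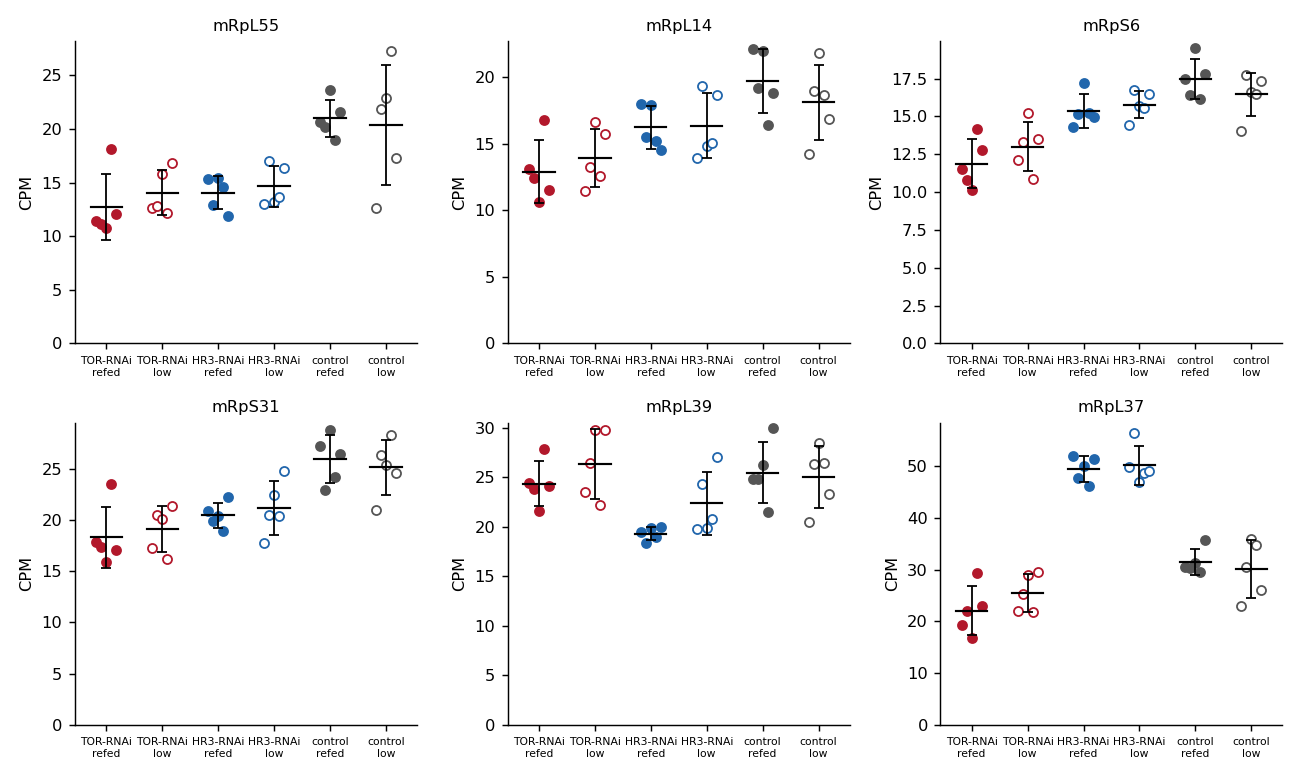
CPM of 6 members in each library by group (points, filled for refed and open for low cholesterol) with the group mean and SD (n = 5). In *mRpL55*, *mRpL14*, *mRpS6* and *mRpS31* the *TOR-RNAi* groups lie lowest or share the lowest place, *mRpL39* is lowest in refed *HR3-RNAi* larvae, and in *mRpL37* all *HR3-RNAi* libraries lie above all others.

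*TOR-RNAi* larvae were also compared with *HR3-RNAi* larvae directly, over both diets. In *TOR-RNAi* larvae 5 members were lower and 1 was higher, beside 5.42% and 5.15% of 12178 genes, and the median log2 fold change of members was -0.09, or -0.06 without low-cholesterol *HR3-RNAi* replicate 2, low-cholesterol *TOR-RNAi* replicate 4 or refed *TOR-RNAi* replicate 3. *mRpL37* was 0.477-fold the *HR3-RNAi* level (log2 fold change -1.07, SE 0.0870, edgeR adjusted p = 4.64e-10). *mRpS6*, *mRpL54*, *mRpL14* and *mRpL22* were at -0.32, -0.29, -0.28 and -0.16 (edgeR adjusted p = 0.000669, 0.0302, 0.0477 and 0.0384).

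*mRpL39* (FBgn0036462, chromosome 3L from 14997981 to 14999666, minus strand, 5 exons), a mitochondria-specific large subunit protein, was the member higher in *TOR-RNAi* larvae. It had 24.4, 23.8, 21.6, 27.9 and 24.1 CPM in refed *TOR-RNAi* larvae, against 19.4, 18.3, 19.9, 18.9 and 19.99 CPM in refed *HR3-RNAi* larvae, with no overlap, and 24.8, 24.8, 26.3, 21.5 and 29.9 CPM in refed controls. On low cholesterol it had 23.5, 26.5, 29.7, 22.2 and 29.8 CPM in *TOR-RNAi* and 19.8, 24.3, 19.9, 20.8 and 27.1 CPM in *HR3-RNAi* larvae, which overlapped. The log2 fold change was 0.28 (SE 0.0723, edgeR adjusted p = 0.00856). The count of 6 was 14 without refed *TOR-RNAi* replicate 4, and 3 without any 1 of refed *TOR-RNAi* replicates 1, 2, 3 and 5, low-cholesterol *TOR-RNAi* replicate 4, refed *HR3-RNAi* replicates 1, 2, 3 and 5 or low-cholesterol *HR3-RNAi* replicates 2 and 4.

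Other genes of mitochondrial translation were examined beside the members, from lists chosen by name. Over both diets in *TOR-RNAi* larvae against controls, both mitoribosomal proteins with other names fell, *bonsai* by 0.43 and *tko* by 0.32 (edgeR adjusted p = 0.000334 and 0.0384). Both belong to the small subunit. Of 15 mitochondrial translation and termination factors listed, 9 were tested, and 5 fell and none rose. These were *mIF2* (initiation, -0.31), *mEFG1* (translocation, -0.42), *mEFTu1* (delivery of charged tRNA, -0.26), *mRRF1* (ribosome recycling, -0.27) and *mTTF* (transcription termination, -0.18), with edgeR adjusted p = 0.00539, 0.0102, 0.0193, 0.0283 and 0.0286. Of 15 genes of mitochondrial transcription, mtDNA copying and RNA handling, 10 were tested and 3 fell, *PolG1* (the mtDNA polymerase, -0.33), *mldr* (-0.22) and *scu* (-0.16), the last 2 encoding parts of mitochondrial RNase P (edgeR adjusted p = 0.00294, 0.0331 and 0.0422). In *HR3-RNAi* larvae against controls none of these genes passed the test.

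Neither rRNA of the mitochondrial ribosome passed the test. The large rRNA, *mt:lrRNA*, had 48135 ± 5316 CPM in refed *TOR-RNAi* larvae and 43045 ± 3689 CPM in refed controls (SD, n = 5 each), and its log2 fold change over both diets was 0.09 (SE 0.0942, edgeR adjusted p = 0.496). The small rRNA, *mt:srRNA*, which had 16.6 ± 4.86 and 10.4 ± 2.49 CPM in the same groups, was at 0.48 (SE 0.238, edgeR adjusted p = 0.164). How mitochondrial rRNA passed library preparation was not tested. *Myc*, *srl* (the fly PGC-1) and *Ets97D*, regulators linked to ribosome or mitochondrial gene expression, had log2 fold changes of -0.08, -0.07 and 0.05 (edgeR adjusted p = 0.490, 0.573 and 0.676).

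Beside the members, 3 related gene groups were read in the same fit of *TOR-RNAi* larvae against controls over both diets, where 12.2% of all genes fell. Of 85 cytosolic ribosomal protein genes tested, 0 fell and 1 rose, with a median log2 fold change of -0.01. Of 14 mitochondrial aminoacyl-tRNA synthetase genes, 6 fell, with a median of -0.19. Of 39 genes of respiratory complex I, 27 fell, with a median of -0.22. In *HR3-RNAi* larvae against controls, the numbers that fell were 0, 1 and 1, where 4.23% of all genes fell, with medians of -0.06, -0.04 and -0.07. The differences between these groups and the members were not tested.

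All markers of fat body, muscle, midgut and neurons on the lists were detected in refed *TOR-RNAi* and refed control larvae. In *TOR-RNAi* larvae against controls over both diets, 1 of 6 fat body (*Fbp1*, log2 fold change 5.55), 1 of 5 salivary gland (*Sgs3*, 6.23) and 1 of 4 midgut markers (*Amy-p*, 0.39) rose (edgeR adjusted p = 0.00195, 0.0330 and 0.00952). Of all genes, 8.72% rose. Of the muscle, neuron and larval testis markers, 0 of 4 each passed the test. Summed fat body markers were at 70955 to 125242 CPM in refed *TOR-RNAi* larvae and 102714 to 118535 CPM in refed controls, summed muscle markers at 9206 to 18496 and 12056 to 18173 CPM, and summed testis markers at 84.6 to 263 and 0.0663 to 188 CPM. Summed midgut markers were at 872 to 1216 and 833 to 1146 CPM, summed neuron markers at 142 to 186 and 133 to 154 CPM, and summed salivary gland markers at 0.224 to 826 and 0.998 to 659 CPM, in the same order of groups. The part of tissue proportions or developmental stage in the members' levels was not tested.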

How the data were processed

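RNA was measured in 30 libraries of whole larvae, in the 6 groups that the sample titles give. The deposited values were raw read counts per gene and FPKM, both computed by the authors. The submitters' processing notes name HISAT2, featureCounts and StringTie, without versions in the sources used here. Counts were tested with edgeR 4.0.16 (R 4.3.3): filter on low counts, TMM scaling, quasi-likelihood test, Benjamini-Hochberg adjustment over all genes tested, threshold 0.05. Diet effects were fitted within the 10 libraries of a genotype, and genotype effects and interactions in all 30. FPKM served to compare levels between genes and, without a test, to give the typical level of members in each group. DESeq2 1.42.0 was an alternative. Code was tested on simulated data. Groups shared replicate numbers, but the labels do not say that a number marks shared animals, so no block was used. Alternatives were other scaling, no filter, a replicate block, only the groups compared, each library left out, and log2 CPM of summed *roX* RNAs as a covariate.

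Named members were the 6 largest rises and 6 largest falls among those called in a comparison (with fewer than 3 called, the 3 with the smallest p), the largest absolute change, the 3 highest and 3 lowest levels, the 3 most and 3 least variable, the 3 most alike pairs, members under the count minimum and *mRpL12*. Members and gene lists were chosen with earlier results of these data known. Gene names and positions come from Ensembl's BDGP6.54 annotation, which had the position of 98.4% of 1696 genes in the study's supplement unchanged; 17252 of 17713 identifiers were named. Replicates are pools of larvae, and p-values measure the spread between these pools. Library totals were compared in 7 pairs of groups, where exact two-sided permutation tests gave a smallest adjusted p of 0.0556 over those tests. At this group size, a fully separated pair alone cannot pass 0.05 after adjustment over 7 tests. The adjusted values therefore do not show equal depth. Totals were 20152280 to 25529592 counts in low-cholesterol *TOR-RNAi* larvae and 25695017 to 33510753 in low-cholesterol controls. These did not overlap (permutation test, exact p = 0.00794 before adjustment), whereas all other pairs did.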

Additional observations from a re-analysis of the deposited data

Results flagged for a closer look

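Among 138 groups of 5 libraries examined (22 named members and the set median, 6 groups each), 13 held a library that stood far from the other 4. Chance flags about 1 in 20 groups. The groups share libraries and the members varied together, so the flags are not separate events. In 8 of the 13 it was refed *TOR-RNAi* replicate 4, above the others each time. There the set median was 0.17, against -0.38 to -0.24 log2 CPM in the other 4 libraries. The same library had 18.2 CPM of *mRpL55* (others 10.8 to 12.1), 13.4 CPM of *mRpL18* (others 10.0 to 10.5), 18.5 CPM of *mRpL32* (others 9.45 to 11.7) and 23.9 CPM of *mRpL35* (others 15.8 to 17.7). It also had 25.6 CPM of *mRpL44* (others 17.8 to 19.6), 23.6 CPM of *mRpS31* (others 15.9 to 17.8) and 29.3 CPM of *mRpS35* (others 20.6 to 22.0).

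The other 5 lay in different libraries. In refed controls, *mRpL22* had 29.3 CPM in replicate 2 (others 33.3 to 34.9), *mRpL32* had 15.0 CPM in replicate 4 (others 18.1 to 19.1), and *mRpL37* had 35.7 CPM in replicate 5 (others 29.6 to 31.3). *mRpL23* had 14.5 CPM in low-cholesterol *TOR-RNAi* replicate 5 (others 11.6 to 12.3), and *mRpL45* had 33.9 CPM in refed *HR3-RNAi* replicate 5 (others 29.9 to 31.1).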

How the results depend on the processing

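No member named by the rule for its comparison changed direction there under the alternatives run (*mRpL39*, at 0.01 in *TOR-RNAi* larvae over both diets, was not named by it). Calls of named members were less stable. An adjusted p under 0.05 was lost in 112 alternative results of a named member and gained in 9, while 1633 stayed on the same side. Several set medians moved by over 1.5 times. Over all alternatives that for diet ranged from -0.24 to -0.09 in *TOR-RNAi* larvae, -0.07 to 0.00080 in *HR3-RNAi* larvae and -0.0027 to 0.12 in controls, the interactions from -0.34 to -0.12 (*TOR-RNAi*) and -0.17 to -0.05 (*HR3-RNAi*), *HR3-RNAi* against controls on low cholesterol from -0.23 to -0.09, and *TOR-RNAi* against *HR3-RNAi* from -0.12 to -0.06. The other 5 moved by less. Counts of members called that moved by over 1.5 times follow, with the value in the report in brackets. A fit of only the groups compared gave 0 (3) for *TOR-RNAi* against controls on low cholesterol, and 38 (4) and 24 (10) for *HR3-RNAi* against controls after refeeding and over both diets. The calls over all genes in these fits are given with those results. DESeq2's size factors gave 9 and its Wald test 10 (4) for *HR3-RNAi* after refeeding, and the Wald test gave 1 (0) for diet in controls. An unadjusted p under 0.05 gave 1, 2 and 5 (0 each) for diet in controls, *HR3-RNAi* and *TOR-RNAi* larvae, 13 (0) for the *TOR-RNAi* interaction, 20 (3) and 10 (1) for *TOR-RNAi* and *HR3-RNAi* on low cholesterol, 37 (4) and 47 (10) for *HR3-RNAi* after refeeding and over both diets, and 14 (6) for *TOR-RNAi* against *HR3-RNAi*. At that threshold, the shares of all genes in the last 5 comparisons were 15.0%, 12.5%, 16.8%, 20.3% and 21.5%, in that order.

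With each library left out, counts ranged from 0 to 1 for diet in *HR3-RNAi* larvae, 0 to 8 and 28 to 67 for *TOR-RNAi* against controls on low cholesterol and after refeeding, 1 to 5 and 1 to 13 for *HR3-RNAi* on the same diets, 43 to 66 and 7 to 36 for *TOR-RNAi* and *HR3-RNAi* over both diets, and 3 to 14 for *TOR-RNAi* against *HR3-RNAi*. Calls over all genes were not counted in these fits, so the ranges do not show whether the shifts were particular to the members. With a replicate block, 52 members were called in *TOR-RNAi* larvae and 7 in *HR3-RNAi* larvae over both diets, and no count moved by over 1.5 times. Same-numbered libraries did not deviate together on average (correlation from -0.78 to 0.82, over 0.1 in 26 of 75 pairs, mean 0.0026). These values do not show whether the numbers pair the samples.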
